A study of Mus musculus with 9 samples.

Results

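The genes described here are 39 antioxidant and redox defence genes of the mouse, listed by symbol, with earlier results of these data known, out of 53465 gene IDs in the count files. They comprise 3 superoxide dismutases, 12 peroxide-reducing enzymes, 6 genes of the thioredoxin system, 9 of the glutathione system, 5 of heme breakdown and the NRF2 pathway, 2 metallothioneins and 2 mitochondrial uncoupling proteins. Each symbol matched 1 Ensembl gene ID. RNA came from the infarct border zone of hearts of NOD-SCID mice, a strain that lacks mature T and B lymphocytes. There were 3 groups of 3 libraries: sham surgery, coronary artery ligation, and ligation with implantation of cells that the labels call FOXO3-GE-MPCs, which, from knowledge of the study and not from the labels, are human mesenchymal progenitor cells with an engineered FOXO3 gene. The label of the sampled region is the same in the sham hearts, although sham surgery makes no infarct, and no age, sex or time after surgery was given in the sources used here. A group with unedited cells was not analysed here, so effects of the cells and of the edited gene cannot be told apart. Reads of human origin were not analysed here either.

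Libraries held 4549268 to 7515052 gene counts, and 3 counts, the smallest level taken as detectable, came to 0.375 to 0.639 CPM (counts per 1000000). The column headers of sham replicates 1 and 2 share a name stem, as do those of ligation replicates 2 and 3, while no replicate pair agreed within sampling noise. The labels do not say that libraries came from separate animals, so p-values measure the spread between these libraries, which may be technical. Cardiomyocyte markers such as Myh6, a heavy chain of cardiac myosin, at 10240.3 ± 560.2 CPM (SD, n = 3) in sham, identified the tissue as heart. The 8 markers of T and B lymphocytes summed to at most 3.20 CPM in any library, and Ms4a1 was at 0 in all 9. Levels of bulk RNA do not tell fewer cells of a type from less RNA per cell.

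Superoxide leaks from the mitochondrial respiratory chain and is made on purpose by NADPH oxidases. Superoxide dismutases turn it into hydrogen peroxide, which catalase, glutathione peroxidases and peroxiredoxins reduce to water. Glutathione and thioredoxin supply the electrons for glutathione peroxidases and peroxiredoxins, and are themselves reduced again by their reductases at the cost of NADPH. NRF2, encoded by Nfe2l2 and held in check by KEAP1, raises transcription of many of these genes through antioxidant response elements. Heart muscle is dense in mitochondria and relies on the mitochondrial members of these systems.

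After ligation some genes of the set rose and others fell. Glutathione peroxidase 3, thioredoxin reductase 1, heme oxygenase 1 and extracellular superoxide dismutase rose, Gpx3 to 2.12 times its sham level. Ucp3, Mgst3, Sod1, Gstm1 and most mitochondrial enzymes fell. Of the 39 genes, 38 could be tested with edgeR (quasi-likelihood F test, Benjamini-Hochberg adjustment over 13825 genes). Of these, 9 rose, 14 fell and 15 did not pass an adjusted p of 0.05. That is 60.5% called, against 38.2% of all genes tested (20.1% higher and 18% lower). Shares of all genes, here and below, were not matched to the set for level of expression. Gpx3 and Ucp3 passed with a change of at least 2-fold, as did 7.08% of all genes. The median log2 fold change of the set was -0.009, and the median of all genes was 0.008. Ranges of CPM over the 3 libraries of each group did not overlap for 26 of the 38 genes (68.4%, against 47.6% of all genes), with 10 higher and 16 lower. The split depends on scaling: with library totals alone in place of TMM factors, 16 rose and 10 fell, because the median gene then moved up by 0.19 on the log2 scale. All fold changes below are therefore relative to the median gene. With library totals 6312 of all 13825 genes were called, 4966 of them higher, and the 16 of 38 higher in the set lie near that share. The 10 of 38 that fell make up a larger share than the other called genes do of all 13825.

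With cells, 9 of the 38 genes differed from ligation alone. Nqo1, Prdx3 and Ucp3 were higher, and Hmox1, Ucp2, Sod3, Gpx1, Gsta4 and Mt1 were lower. The remaining 29 did not pass by the edgeR test, and none of the 9 changed 2-fold or more (2.27% of all genes passed at that size). The share called was 23.7%, against 9.87% of all genes (4.19% higher and 5.69% lower), and the medians were -0.03 for the set and 0.002 for all genes. CPM ranges did not overlap for 18 genes (47.4%, against 27.2% of all genes), 8 higher and 10 lower. This comparison and the previous one share the ligation libraries, so the 2 fold changes of a gene are not independent of each other.

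Against sham, the cell group had 7 genes higher, 14 lower and 17 that did not pass (55.3% called by edgeR, against 40.9% of all genes, 21% higher and 20% lower). Gpx3 alone passed with a change of at least 2-fold, as did 7.46% of all genes. Ranges did not overlap for 25 genes (65.8%, against 49.8%), 11 higher and 14 lower. Library totals alone gave 16 higher and 11 lower, and moved the median gene up by 0.16, with 4612 of all 13825 genes higher among 6310 called. The 11 of 38 that were lower make up a larger share than the other called genes do of all 13825. Across the 3 comparisons, 11 genes passed in none: Gclc, Gclm, Glrx, Gpx7, Hmox2, Keap1, Mgst1, Nfe2l2, Prdx4, Srxn1 and Txn1. Of these, 7 did pass as higher with library totals alone: Gclm, Hmox2, Mgst1, Nfe2l2, Srxn1 and Txn1 after ligation, and Glrx for cells against sham. Another 10 fell after ligation, did not pass between the ligated groups and were still below sham with cells: Gpx4, Gstm1, Mgst3, Prdx2, Prdx5, Prdx6, Sod1, Sod2, Txn2 and Txnrd2.

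**Figure D1:**
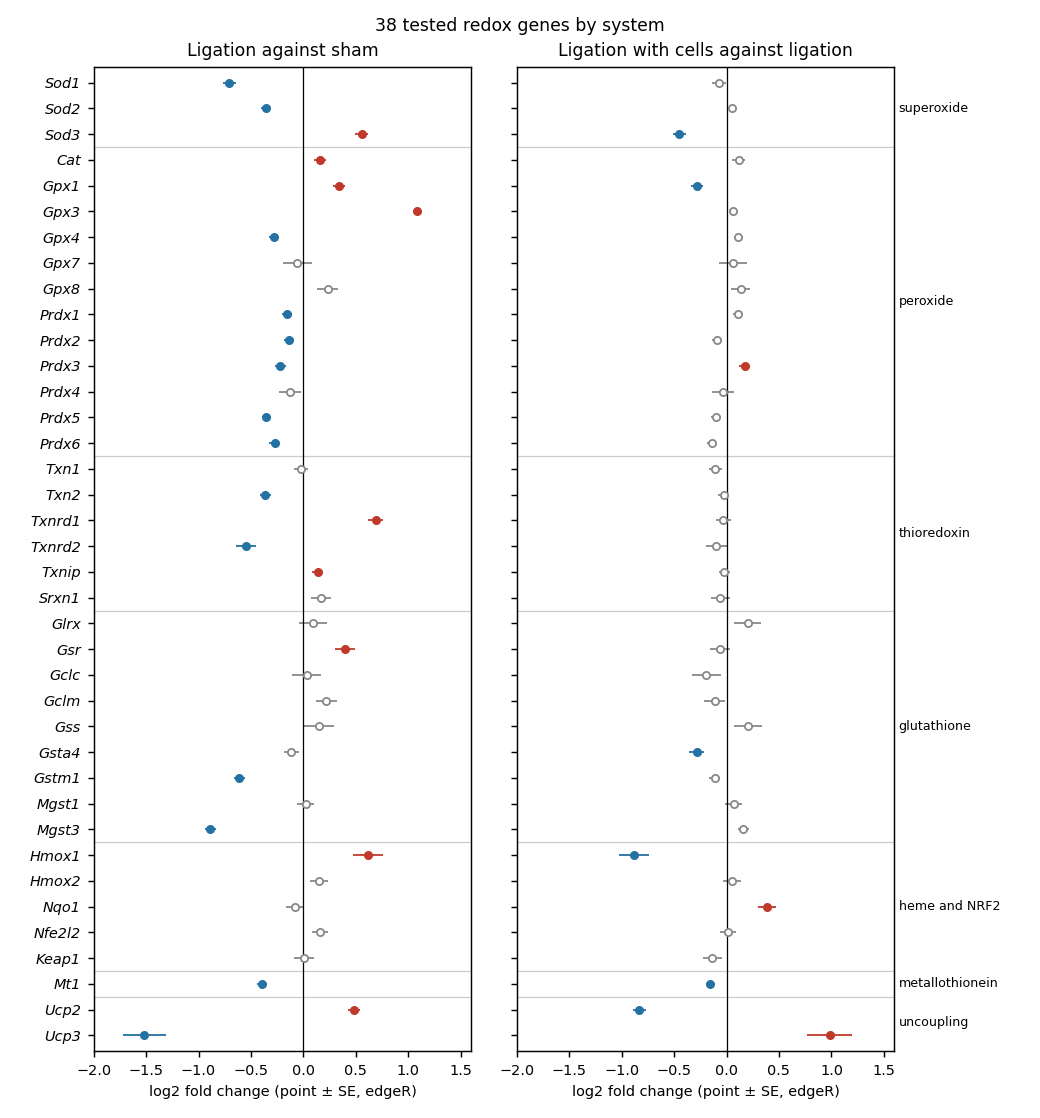
Log2 fold change (horizontal axis, point ± SE from edgeR) of the 38 tested genes, grouped by system, for ligation against sham (left) and ligation with cells against ligation (right). Filled red points rose and filled blue points fell at an adjusted p under 0.05, open points did not pass; 23 points are filled on the left and 9 on the right.

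Promoter windows of RefSeq (GRCm38.p6, 250 bases before to 50 after a start) were held for 33 of the 39 genes. They were searched on both strands for the core letters of the antioxidant response element, TGACNNNGC, for the metal response element, TGCACNC or TGCGCNC, and for the forkhead box O site GTAAACA. The first motif was in 9 of the 33 genes (27.3%; 14% of all genes in the table): Sod1, Prdx1, Txnrd1, Srxn1, Gclm, Mgst1, Nfe2l2, Mt2 and Ucp2. Metal response letters were in 10 of 33 (30.3%, against 28.2% of all genes) and the forkhead letters in Txnip alone (3.03%, against 4.05% of all genes). The 5 stretches printed first hold the antioxidant letters in capitals, on the opposite strand in each, and are shown because their genes did not move alike: Txnrd1 and Ucp2 rose after ligation, Sod1 and Prdx1 fell, and Gclm did not pass. Then follow Txnip with the forkhead letters and Mt1 with metal response letters in capitals. The Txnrd1 stretch belongs to an alternative start inside its gene model, which begins at chr10:82833951. A match is a description of letters, not of binding.
Txnrd1, chr10:82859089-82859147: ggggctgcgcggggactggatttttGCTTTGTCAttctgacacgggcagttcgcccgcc
Ucp2, chr7:100493267-100493325: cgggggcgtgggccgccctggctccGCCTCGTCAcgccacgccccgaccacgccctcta
Sod1, chr16:90220681-90220739: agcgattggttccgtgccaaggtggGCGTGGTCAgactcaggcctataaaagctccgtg
Prdx1, chr4:116685441-116685499: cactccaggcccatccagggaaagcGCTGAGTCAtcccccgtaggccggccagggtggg
Gclm, chr3:122245398-122245456: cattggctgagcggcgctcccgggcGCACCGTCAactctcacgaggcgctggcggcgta
Txnip, chr3:96557811-96557867: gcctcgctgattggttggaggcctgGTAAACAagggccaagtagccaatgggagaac
Mt1, chr8:94179041-94179088: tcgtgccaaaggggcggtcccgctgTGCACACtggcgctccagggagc

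Of the superoxide dismutases, the cytosolic and the mitochondrial enzyme fell after ligation and the extracellular enzyme rose. In each sentence of values that follows, the 3 numbers of a group are CPM of replicates 1 to 3. Sod1 (ENSMUSG00000022982, chr16:90220754-90226329), the cytosolic copper and zinc enzyme, was at 338, 341 and 357 in sham, 220.1, 217 and 198 after ligation and 187, 225 and 191 with cells. No library of either ligated group came near sham, and the ligated groups overlapped. The fall after ligation had a log2 fold change -0.71, SE 0.0640, adjusted p 2.01e-08 (edgeR), and with cells Sod1 stayed below sham (log2 fold change -0.78, SE 0.0639, adjusted p 4.11e-09). Sod2 (ENSMUSG00000006818, chr17:13006846-13040063), the manganese enzyme of mitochondria, was at 694, 655 and 706 in sham, 549, 537 and 515 after ligation and 566, 549 and 540.3 with cells. All 6 ligated libraries were below all 3 sham libraries, with log2 fold change -0.36, SE 0.0441, adjusted p 1.38e-06 after ligation and log2 fold change 0.049, SE 0.0441, adjusted p 0.571 for cells against ligation. Of the 31-mers (stretches of 31 bases) of Sod2, 26.7% occur in another gene model, chiefly AC166110.4, so its counts are uncertain to that extent.

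Sod3 (ENSMUSG00000072941, chr5:52363791-52371418), the dismutase secreted into the extracellular matrix, was at 87.4, 97.7 and 89.1 in sham, 132, 132 and 138 after ligation and 101, 95.7 and 98.8 with cells. The ligation libraries stood above all 6 others, and the sham and cell ranges overlapped. Sod3 rose after ligation (log2 fold change 0.56, SE 0.0615, adjusted p 3.59e-07, edgeR) and fell with cells (log2 fold change -0.45, SE 0.0605, adjusted p 3.28e-05), and it did not pass between cells and sham (log2 fold change 0.11, SE 0.0622, adjusted p 0.180). Under library totals alone that last difference did pass (log2 fold change 0.27, adjusted p 0.00208). The ratio of Sod3 to Sod1 counts within a library was 0.265 ± 0.0193 (SD, n = 3) in sham, 0.636 ± 0.0540 after ligation and 0.493 ± 0.0605 with cells. Such ratios do not depend on the scaling of a library. They were chosen after values were seen, and an exact two-sided permutation test of 3 against 3 libraries cannot go below p = 0.1, the value for each pair of groups here (0.171 after Benjamini-Hochberg adjustment over 24 ratio tests), and no call is made from it.

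Catalase and the glutathione peroxidases moved apart. Gpx3 (ENSMUSG00000018339, chr11:54902453-54910377), the selenium-containing peroxidase secreted into plasma, was at 599.6, 637 and 606 in sham, 1269, 1277 and 1355 after ligation and 1362, 1313 and 1396 with cells. Every ligated library, with or without cells, was far above every sham library, and the ligated groups overlapped. Gpx3 had a log2 fold change 1.08, SE 0.0413, adjusted p 3.01e-14 after ligation and log2 fold change 1.14, SE 0.0413, adjusted p 1.07e-14 for cells against sham, the largest rise of the set in each. Gpx1 (ENSMUSG00000063856, chr9:108338903-108340343), the cytosolic selenoprotein peroxidase, was at 159, 139 and 159 in sham, 201, 193 and 184 after ligation and 156, 164 and 156 with cells. The ligation libraries were high, and the cell and sham ranges overlapped. Gpx1 rose after ligation (log2 fold change 0.34, SE 0.0603, adjusted p 0.000139, edgeR) and fell with cells (log2 fold change -0.28, SE 0.0597, adjusted p 0.00352).

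Gpx4 (ENSMUSG00000075706, chr10:80047166-80056439), which reduces lipid hydroperoxides in membranes and guards against ferroptosis, was at 895, 861 and 885 in sham, 741, 712 and 715 after ligation and 767, 817 and 758 with cells. It fell after ligation (log2 fold change -0.28, SE 0.0412, adjusted p 1.23e-05, edgeR) and was still lower than sham with cells (log2 fold change -0.17, SE 0.0411, adjusted p 0.00201), a difference that library totals alone reduced to -0.01 (adjusted p 0.793). The cell libraries lay above the ligation libraries without overlap, which did not pass the test (log2 fold change 0.11, SE 0.0412, adjusted p 0.0961). Of the 31-mers of Gpx4, 38.9% occur in another gene, chiefly the pseudogene Gpx4-ps2. The ratio of Gpx3 to Gpx4 counts went from 0.698 ± 0.0361 (SD, n = 3) in sham to 1.80 ± 0.0929 after ligation and 1.74 ± 0.122 with cells.

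Cat (ENSMUSG00000027187, chr2:103453849-103485160), the peroxisomal enzyme that splits hydrogen peroxide, was at 183, 170.2 and 187 in sham, 186, 219 and 196 after ligation and 219, 220.3 and 214 with cells. The lowest ligation value was inside the sham range, while all cell libraries were above sham. Cat passed after ligation (log2 fold change 0.16, SE 0.0607, adjusted p 0.0453, edgeR), but 9 of 13 alternatives ended that call (adjusted p over all 13 from 9.83e-05 to 0.287). Among them were the fits without sham replicate 1 or 2 (0.0705 and 0.163) and without ligation replicate 2 or 3 (0.287 and 0.0852). The rise with cells against sham was 0.27 on the log2 scale (adjusted p 0.000987) and held in every alternative.

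Gpx7 and Gpx8 encode peroxidases of the endoplasmic reticulum. Gpx8 (ENSMUSG00000021760, chr13:113042753-113046410) was at 32.04, 30.3 and 35.6 in sham, 42.6, 39.4 and 34 after ligation and 42.4, 43 and 40.8 with cells. Its cell libraries were all above sham and its ligation libraries reached down into the sham range. Gpx8 rose with cells against sham (log2 fold change 0.36, SE 0.0938, adjusted p 0.00373, edgeR) and did not pass after ligation (log2 fold change 0.23, SE 0.0959, adjusted p 0.0654), although it did with library totals alone (0.42 on the log2 scale, adjusted p 0.00102), without sham replicate 3 (0.0360) and without ligation replicate 3 (0.0237). Gpx7 was between 14.04 and 19.4 CPM in all 9 libraries and passed in no comparison.

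Peroxiredoxins reduce peroxides with a reactive cysteine and are abundant in heart. In these libraries 5 of the 6 genes fell after ligation (18% of all genes did), by 0.35 for Prdx5, 0.27 for Prdx6, 0.22 for Prdx3, 0.16 for Prdx1 and 0.14 for Prdx2 (log2), the adjusted p by edgeR running from 2.95e-06 to 0.0262. With library totals alone Prdx1 and Prdx2 changed sign (0.03 and 0.05), and Prdx3 and Prdx6 no longer passed (-0.03 and -0.09). Prdx5, the atypical peroxiredoxin of mitochondria and peroxisomes, still passed under it (-0.17, adjusted p 0.00392). Trmt112 overlaps 19.1% of the exon bases of Prdx5, and Junb and Rnaseh2a overlap 11.5% of those of Prdx2. Of the 31-mers of Prdx1 and Prdx2, 15.4% and 16.5% occur in another gene. Leaving out sham replicate 1 or 3 or ligation replicate 1 ended the call for Prdx2 (adjusted p 0.112, 0.0606 and 0.0926), as did no filter on low counts (0.0607). Prdx4, of the endoplasmic reticulum, was at 30.2 ± 0.594 CPM in sham and did not pass (0.379).

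Prdx3 (ENSMUSG00000024997, chr19:60864051-60874556), the peroxiredoxin confined to mitochondria, was at 233, 219 and 224 in sham, 198, 196 and 187 after ligation and 216, 216 and 222 with cells. Ligation was the low group, and the cell libraries overlapped sham. Prdx3 fell after ligation (log2 fold change -0.22, SE 0.0507, adjusted p 0.00157, edgeR) and rose with cells (log2 fold change 0.17, SE 0.0504, adjusted p 0.0324). The rise is close to the threshold: 8 of 13 alternatives ended it (adjusted p over all 13 from 0.0235 to 0.134). Leaving out ligation replicate 2 or 3 gave 0.0813 and 0.134, and leaving out cell replicates 1, 2 or 3 gave 0.0788, 0.0636 and 0.114. The other 5 peroxiredoxins did not pass between the ligated groups, with fold changes from -0.14 for Prdx6 to 0.11 for Prdx1 on the log2 scale, although Prdx6 passed as lower with library totals alone (-0.17, adjusted p 0.0436). Against sham, Prdx2, Prdx5 and Prdx6 were lower with cells (by edgeR, -0.23, -0.45 and -0.41), of which Prdx2 did not pass with library totals alone (adjusted p 0.218).

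**Figure D2:**
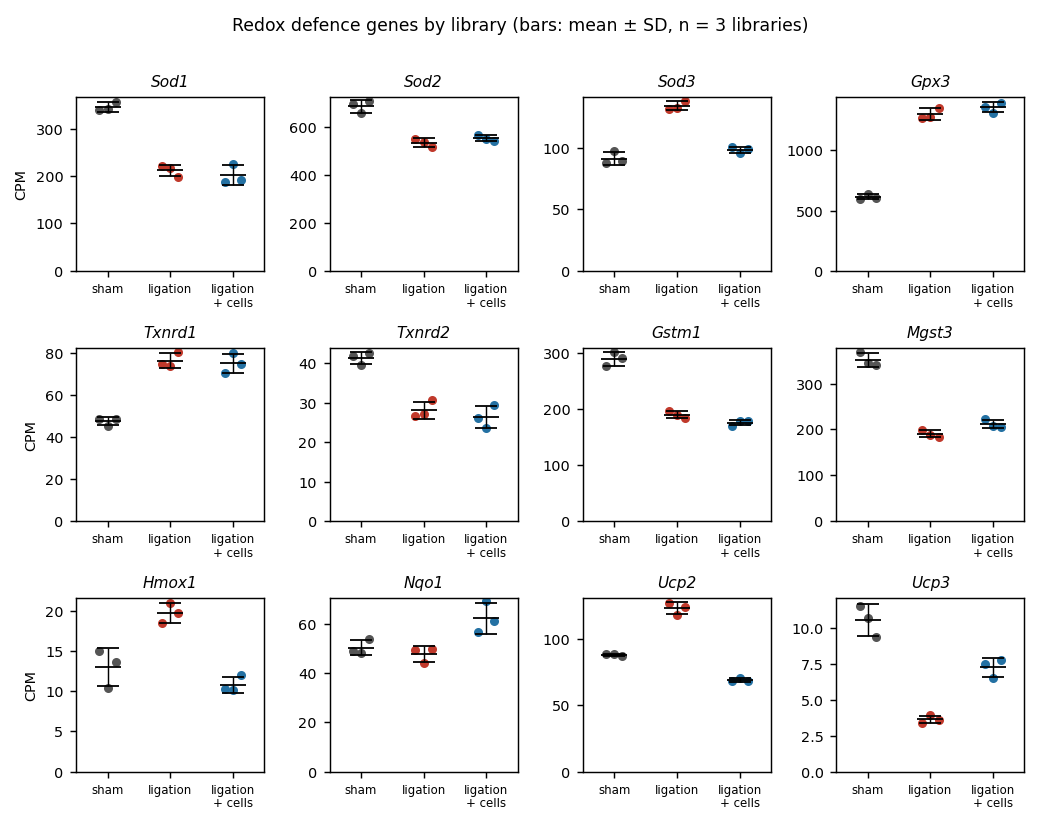
CPM (vertical axes, from 0) of 12 redox defence genes in each library of sham, ligation, and ligation with cells; points are libraries, bars the mean ± SD of 3 libraries. Sod1, Sod2, Gstm1 and Mgst3 are high in sham only, Gpx3 and Txnrd1 are high in both ligated groups, Sod3, Hmox1 and Ucp2 are high after ligation alone, and Ucp3 is lowest there.

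The thioredoxin system splits into a cytosolic and a mitochondrial pair of thioredoxin and its reductase, and these moved in opposite directions after ligation at the level of the reductases. Txnrd1 (ENSMUSG00000020250, chr10:82833951-82897712), the cytosolic selenoprotein reductase, whose promoter stretch is printed above, was at 48.4, 45.5 and 48.7 in sham, 74.6, 73.9 and 80.6 after ligation and 70.4, 79.8 and 74.9 with cells. Every ligated library, with or without cells, was above every sham library. Txnrd2 (ENSMUSG00000075704, chr16:18426384-18479073), its mitochondrial counterpart, was at 42, 39.5 and 42.5 in sham, 26.6, 27.1 and 30.6 after ligation and 26.1, 23.7 and 29.4 with cells. Here every ligated library was below every sham library. Txnrd1 had a log2 fold change 0.69, SE 0.0722, adjusted p 1.73e-07 after ligation and Txnrd2 a log2 fold change -0.55, SE 0.0969, adjusted p 0.000125 (edgeR). Neither passed between the ligated groups (0.852 and 0.618), and the distances from sham with cells were 0.66 and -0.65. The ratio of Txnrd1 to Txnrd2 counts, 1.15 ± 0.00355 (SD, n = 3) in sham, was 2.72 ± 0.0842 after ligation and 2.87 ± 0.434 with cells.

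Of the thioredoxins, the mitochondrial one fell and the cytosolic one did not pass. Txn2, in mitochondria, was at 206 ± 11.3 CPM in sham, 160.4 ± 2.10 after ligation and 157 ± 4.53 with cells, with the sham range above the others (edgeR, log2 fold change -0.36, SE 0.0551, adjusted p 2.26e-05 after ligation). Txn1, in the cytosol, was at 112 ± 7.18, 110.4 ± 4.68 and 103 ± 2.15 CPM and passed in no comparison. The ratio of Txn1 to Txn2 counts was 0.548 ± 0.0638 (SD, n = 3) in sham, 0.689 ± 0.0379 after ligation and 0.654 ± 0.00572 with cells, and that of Sod1 to Sod2 was 0.504 ± 0.0167, 0.397 ± 0.0101 and 0.365 ± 0.0411. The exact permutation test of 3 against 3 cannot pass 0.05 (adjusted p 0.171 in both for ligation against sham). Under library totals alone Txn1 did pass after ligation, as higher (0.17, adjusted p 0.0412), and without sham replicate 2 it passed as lower for cells against sham (-0.18, adjusted p 0.0323). Txnip (ENSMUSG00000038393, chr3:96557957-96561883), which binds and inhibits thioredoxin, was at 321, 291 and 315 in sham, 354, 337 and 328 after ligation and 333, 332 and 339.5 with cells. Sham was the low group without overlap, yet the rise after ligation was small (log2 fold change 0.13, SE 0.0498, adjusted p 0.0387, edgeR). It was lost in 9 of 13 alternatives (adjusted p over all 13 from 1.30e-05 to 0.183). These include the fits without sham replicates 2 or 3 (0.183 and 0.0501) and without ligation replicates 1, 2 or 3 (0.137, 0.0706 and 0.0542). The overlapping transcript Gm15441 covers 19.4% of the exon bases of Txnip, and the strand setting of the counting is not known. Srxn1, which repairs overoxidised peroxiredoxins, was higher in all ligation libraries than in sham but did not pass (log2 fold change 0.17, SE 0.0942, adjusted p 0.182).

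In the glutathione system the conjugating enzymes Gstm1 and Mgst3 fell and the reductase rose, while the genes for synthesis did not pass after ligation. Mgst3 (ENSMUSG00000026688, chr1:167371966-167393841), a microsomal glutathione S-transferase that also acts on lipid peroxides, was at 369, 346 and 339.7 in sham, 199, 188 and 184 after ligation and 222, 208 and 206 with cells. The cell libraries lay between sham and ligation without touching either. Mgst3 fell after ligation (log2 fold change -0.89, SE 0.0532, adjusted p 3.93e-11, edgeR), and the step up with cells did not pass (log2 fold change 0.16, SE 0.0535, adjusted p 0.0667), except without ligation replicate 1 (adjusted p 0.0427). Gstm1 (ENSMUSG00000058135, chr3:108012255-108017973), a cytosolic transferase, was at 277, 302 and 290.0 in sham, 197, 189 and 184 after ligation and 169.9, 178 and 179 with cells. Its 3 groups did not overlap, in the order sham, ligation, cells. The fall after ligation had a log2 fold change -0.61, SE 0.0526, adjusted p 9.74e-09 and the further step with cells did not pass (0.217). Gstm1 shares 28.8% of its 31-mers with other genes, chiefly the pseudogene Gstm2-ps1.

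Gsta4 (ENSMUSG00000032348, chr9:78182774-78209349), a transferase that clears the lipid breakdown product 4-hydroxynonenal, was at 77.4, 79.9 and 75.1 in sham, 70.3, 74.5 and 69.5 after ligation and 53.6, 64.8 and 57.6 with cells. The cell libraries were low, and those of ligation lay just under sham. Gsta4 fell with cells against ligation (log2 fold change -0.28, SE 0.0732, adjusted p 0.0153, edgeR), a call that was lost without ligation replicate 2 (0.0841) and without cell replicates 1 or 3 (0.106 and 0.0610). Against sham it was lower with cells by edgeR (log2 fold change -0.40, SE 0.0731, adjusted p 0.000168). Mgst1 was between 37.4 and 45.4 CPM throughout and passed in no comparison.

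Gsr, the reductase that restores glutathione, went from 27.99 ± 2.99 CPM in sham to 36.7 ± 3.45 after ligation (log2 fold change 0.40, SE 0.0991, adjusted p 0.00324, edgeR) and 35.2 ± 1.03 with cells. Its rise with cells against sham (0.00982) was lost without sham replicate 2 (0.0678). Gclc and Gclm, the catalytic and modifier subunits of the enzyme that limits glutathione synthesis, did not pass in any comparison. Gclm was higher in every ligation library than in sham (log2 fold change 0.22, SE 0.103, adjusted p 0.103), and Gclc overlapped throughout (log2 fold change 0.031, SE 0.140, adjusted p 0.887). Gss (ENSMUSG00000027610, chr2:155563181-155592810), which completes glutathione, was at 12.5, 13.3 and 15.9 in sham, 16.4, 16.2 and 14 after ligation and 17.2, 19.1 and 17 with cells. The highest sham value overlapped ligation and not the cell group. Gss passed against sham with cells (log2 fold change 0.35, SE 0.135, adjusted p 0.0428, edgeR), a call that 9 of 13 alternatives ended (adjusted p over all 13 from 0.00382 to 0.152). Without sham replicates 1 or 2 it was 0.152 and 0.113, and without cell replicates 1, 2 or 3 it was 0.0585, 0.127 and 0.0538. Antisense and neighbouring genes overlap 15.4% of its exon bases. Glrx, a glutaredoxin that removes glutathione from proteins, varied from 26.03 to 38.98 CPM within sham and did not pass (0.0768 for cells against sham, and 0.00236 without sham replicate 1).

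Among the genes of heme breakdown and the NRF2 pathway, Hmox1 rose after ligation, and Hmox1 and Nqo1 moved in opposite directions with cells. Hmox1 (ENSMUSG00000005413, chr8:75093621-75100589), the inducible heme oxygenase, was at 14.95, 10.4 and 13.7 in sham, 18.5, 20.98 and 19.8 after ligation and 10.2, 10.1 and 11.96 with cells. The ligation libraries were the high group, and the cell libraries overlapped the low end of sham. Hmox1 had a log2 fold change 0.61, SE 0.145, adjusted p 0.00204 after ligation and a log2 fold change -0.88, SE 0.145, adjusted p 0.000301 with cells (edgeR). It did not pass between cells and sham (0.178), except without sham replicate 2 (0.0465). Hmox2, the constitutive form, did not pass, and Cdip1 overlaps 40.2% of its exon bases. Nqo1 (ENSMUSG00000003849, chr8:107388225-107403206), a quinone reductase and widely used NRF2 target, was at 48.8, 48.1 and 53.7 in sham, 49.4, 43.8 and 49.6 after ligation and 56.5, 68.9 and 61.2 with cells. The cell group was the high one, and sham and ligation overlapped. Nqo1 was higher with cells than in ligation (log2 fold change 0.39, SE 0.0836, adjusted p 0.00401, edgeR) and than in sham (log2 fold change 0.31, SE 0.0837, adjusted p 0.00544).

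The regulator and its inhibitor did not pass. Nfe2l2 (ENSMUSG00000015839, chr2:75675513-75704641) was at 67.3, 69.5 and 61.9 in sham, 80.8, 68.3 and 73.4 after ligation and 79.9, 71.9 and 72.3 with cells. The cell libraries were above sham, and those of ligation overlapped both. Its adjusted p by edgeR was 0.113 after ligation and 0.0714 for cells against sham, and with library totals alone 0.000826 and 0.00105 (log2 fold changes of 0.35 and 0.33). Keap1 (ENSMUSG00000003308, chr9:21229730-21239361) was at 49.3, 49.3 and 41.3 in sham, 43.9, 47.03 and 48.6 after ligation and 46.1, 38.01 and 43.6 with cells. All 3 groups overlapped, and 10.9% of its exon bases are covered by Gm16754. The edgeR fold change of Keap1 was 0.005 on the log2 scale after ligation (adjusted p 0.973), with a sign that changed in 6 of 13 alternatives. These values concern RNA, and NRF2 is controlled mainly through the stability of its protein.

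Metallothioneins are small cysteine-rich proteins that bind zinc and copper and scavenge radicals. Mt1 (ENSMUSG00000031765, chr8:94179082-94180327) was at 347, 361 and 368 in sham, 279, 268 and 271 after ligation and 243, 241 and 252 with cells. The 3 groups did not overlap, in the order sham, ligation, cells. Mt1 fell after ligation (log2 fold change -0.40, SE 0.0470, adjusted p 8.88e-07, edgeR) and was lower with cells than in sham (log2 fold change -0.55, SE 0.0470, adjusted p 7.53e-09). Between the ligated groups it passed narrowly (log2 fold change -0.15, SE 0.0472, adjusted p 0.0444, edgeR). Of 13 alternatives, 10 ended that call, among them every fit without 1 of the 6 libraries (0.0603 to 0.137). Over all 13 the adjusted p ran from 0.0161 to 0.137. Mt2 (ENSMUSG00000031762, chr8:94172664-94173568), its neighbour, was at 0.534, 0 and 1.11 in sham, 0.639, 1.01 and 0.250 after ligation and 0.567, 0.832 and 0.288 with cells. These values are close to the detectable level, Mt2 failed the filter on low counts, and no fold is given. The gene model Gm45774 covers 73.5% of the exon bases of Mt2, and how reads that fit both were counted is not known.

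The uncoupling proteins are carriers of the inner mitochondrial membrane that can lower superoxide production by reducing the proton gradient. Their genes lie next to each other on chromosome 7 and moved in opposite directions in both steps. Ucp2 (ENSMUSG00000033685, chr7:100493337-100502020) was at 88.6, 88.6 and 87.5 in sham, 127, 119 and 124 after ligation and 68.4, 70.9 and 68.9 with cells. The 3 groups did not overlap, ligation being highest and the cell group lowest. Ucp2 rose after ligation (log2 fold change 0.48, SE 0.0590, adjusted p 1.35e-06, edgeR), fell with cells (log2 fold change -0.83, SE 0.0594, adjusted p 4.29e-09) and ended below sham (log2 fold change -0.35, SE 0.0609, adjusted p 0.000110). Ucp3 (ENSMUSG00000032942, chr7:100472990-100486432), the form of muscle, was at 11.6, 10.7 and 9.37 in sham, 3.41, 3.91 and 3.63 after ligation and 7.52, 6.52 and 7.78 with cells. Again no groups overlapped, with sham highest and ligation lowest. Ucp3 fell after ligation to 0.350 of its sham level (log2 fold change -1.52, SE 0.205, adjusted p 5.38e-06, edgeR) and rose with cells (log2 fold change 0.98, SE 0.212, adjusted p 0.00389), the largest change of the set in each.

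Ucp3 was still lower than sham with cells (log2 fold change -0.53, SE 0.182, adjusted p 0.0237, edgeR), but not without sham replicates 1 or 2 (0.0931 and 0.0575) or cell replicate 2 (0.0824). DESeq2 (0.0695), library totals alone (0.103) and no filter on low counts (0.0501) also ended that call, the range over all alternatives being 0.0228 to 0.103. The ratio of Ucp2 to Ucp3 counts was 8.43 ± 0.849 (SD, n = 3) in sham, 34.0 ± 3.51 after ligation and 9.61 ± 1.10 with cells. The ligation libraries had higher ratios than all others, and sham and cells overlapped. The exact permutation test of these ratios cannot pass 0.05 and no call is made from it (adjusted p of 0.171 for ligation against either group and 0.379 for cells against sham).

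By place in the cell, all 7 mitochondrial genes passed after ligation, 6 lower (Sod2, Prdx3, Prdx5, Txn2, Txnrd2 and Ucp3) and Ucp2 higher, with a median log2 fold change of -0.36 (of all genes, 38.2% were called and 18% were lower). Prdx5 was counted here although it is also peroxisomal, whereas Gpx4 was kept apart as in more than 1 place. Under library totals alone the median was -0.17 and Prdx3 did not pass. Of 20 tested genes of cytosol and nucleus, 4 rose, 6 fell and 10 did not pass (median 0.02). Of 7 in the endoplasmic reticulum and other membranes, Hmox1 rose, Mgst3 fell and 5 did not pass (28.6% called, below the share of all genes). Both secreted enzymes, Sod3 and Gpx3, rose (median 0.82). With cells against ligation, Prdx3 and Ucp3 rose, Ucp2 fell, and the other 4 mitochondrial genes did not pass (42.9% called, against 9.87% of all genes).

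Divided by the merged length of all annotated exons, Gpx4 had the highest level of the set in sham, at 511 ± 9.89 CPM per kb (SD, n = 3). That length, 3970 bases for Sod1, 10008 for Sod2 and 5915 for Gss, is at least that of any single transcript. The order between genes is therefore approximate, and that of Gpx4 also rests on 31-mers of which 38.9% occur in another gene. Gpx3 and Mgst3 followed at 339 ± 10.9 and 320.4 ± 13.8, with ranges that overlap, and then Prdx5 and Mt1 at 289.7 ± 6.67 and 288 ± 8.30, which overlap too. After ligation Gpx3 came first at 717 ± 26.3, before Gpx4 at 419 ± 9.53 and Prdx5 at 227 ± 11.1, whose range overlapped that of Mt1 (219 ± 4.54). With cells Gpx3, Gpx4 and Prdx5 led, at 749 ± 23.2, 453 ± 18.5 and 212 ± 5.63. At the low end, Ucp3 was at 3.36 ± 0.354 CPM per kb in sham and 1.16 ± 0.0796 after ligation, and Gss at 2.35 ± 0.300 in sham. The summed CPM of all 39 genes was 7066 ± 70.6 (SD, n = 3) in sham, 6857 ± 63.5 after ligation and 6811 ± 35.1 with cells.

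**Figure D3:**
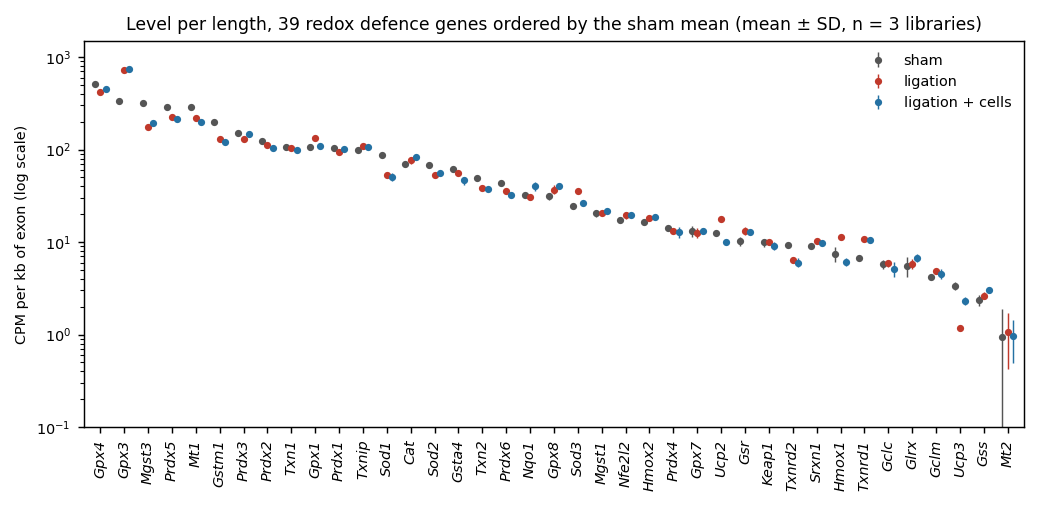
Mean CPM per kb of exon (vertical log axis) ± SD over 3 libraries for all 39 genes, ordered by the sham mean, with sham in grey, ligation in red and ligation with cells in blue. Gpx3 moves above Gpx4 in both ligated groups. Mt2, drawn at the low end, is close to the detectable level.

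A wider list of 120 redox genes, none of them in the set above, was all present in the files, and 103 were tested. After ligation 31 rose and 28 fell (57.3% called by edgeR, against 38.2% of all genes). With cells against ligation 3 rose and 11 fell, and the 13.6% called is near the 9.87% of all genes. With cells against sham 23 rose and 32 fell (53.4%, against 40.9% of all genes). Library totals alone gave 47 higher and 19 lower after ligation, and 40 and 19 with cells against sham. Of all 13825 genes, 6312 and 6310 were then called, 4966 and 4612 of them higher and the rest lower. The class with most calls between the ligated groups held the sources of reactive oxygen: 7 of its 13 tested genes fell with cells and 6 did not pass, with a median of -0.56 (53.8% lower, against 5.69% of all genes). After ligation 5 of them had risen and 1 had fallen (46.2% called, against 38.2% of all genes).

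Cybb, the catalytic subunit of the phagocyte NADPH oxidase, was at 12.1, 9.72 and 13.02 in sham, 24.3, 28.5 and 25.6 after ligation and 10.9, 9.99 and 10.1 with cells CPM. Ligation was the high group, and sham and cells overlapped. Cybb rose after ligation (log2 fold change 1.17, SE 0.134, adjusted p 5.59e-07, edgeR) and fell with cells (log2 fold change -1.34, SE 0.133, adjusted p 5.30e-07). Among its cytosolic partners, Ncf1, Ncf4 and Rac2 rose after ligation by 0.86, 1.02 and 0.75 (log2 units) and in the cell group fell by 1.44, 1.55 and 1.40 (edgeR, adjusted p at most 0.00912). Nox4, an oxidase that is active without these partners, was at 2.85, 2.97 and 2.70 in sham, 11.3, 10.4 and 10.4 after ligation and 12.9, 10.7 and 11.4 with cells CPM. It was high in both ligated groups without overlap with sham (log2 fold change 1.90, SE 0.204, adjusted p 2.38e-07) and did not pass between them (0.690). Xdh, which encodes xanthine oxidoreductase, was at 314, 319.9 and 336 in sham, 207, 205 and 218 after ligation and 145, 132 and 137 with cells CPM. It stepped down after ligation (log2 fold change -0.62, SE 0.0527, adjusted p 7.73e-09) and again with cells (log2 fold change -0.61, SE 0.0540, adjusted p 1.23e-07), with no overlap of groups.

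**Figure D4:**
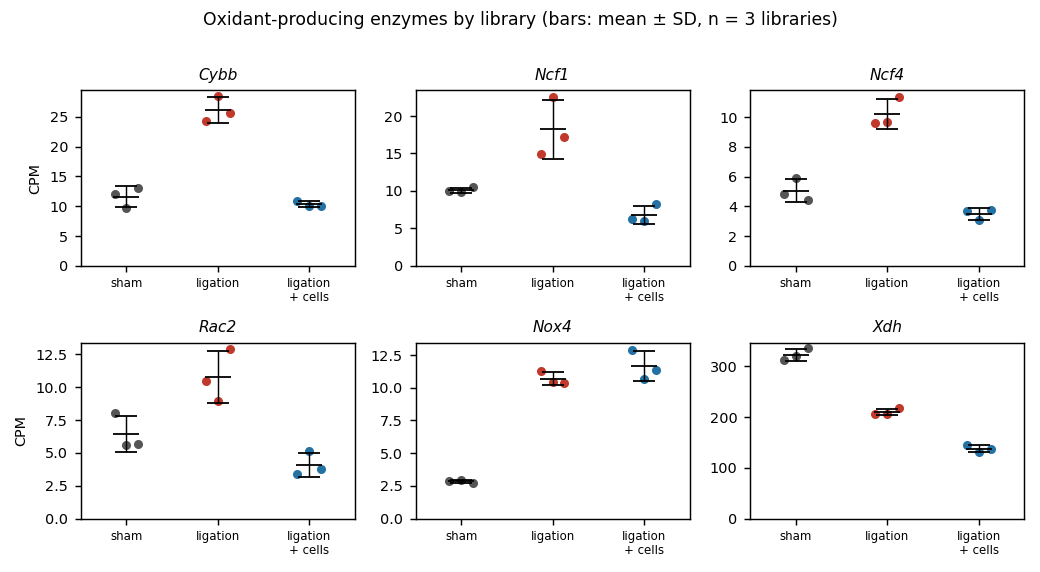
CPM (vertical axes, from 0) of 6 genes of oxidant-producing enzymes by library; points are libraries, bars the mean ± SD of 3 libraries. Cybb, Ncf1, Ncf4 and Rac2 are highest after ligation alone, Nox4 is high in both ligated groups, and Xdh falls from sham to ligation to cells.

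Beyond the oxidases, the largest rises after ligation among genes whose groups did not overlap were in Slc39a8, a zinc and manganese importer (1.76 on the log2 scale), and Mafk, a small MAF partner of NRF2 (1.35). Chac1, which degrades glutathione and was singled out after its values were seen, rose to 2.83 times sham (edgeR, adjusted p 0.00803) with groups that overlapped. Slc39a8 and Mafk stayed above sham with cells (2.01 and 1.25) and did not pass between the ligated groups (0.25 and -0.095). The largest falls were in Gsta1 (-2.40), Mt3 (-1.38), the iron exporter Slc40a1 (-1.30) and Gstk1 (-0.78), with edgeR adjusted p of at most 0.0276. Gsta1 and Mt3 were near the detectable level in ligation. Between the ligated groups the 3 genes that rose were Me1, malic enzyme, Tfrc, the transferrin receptor, and Nnt, the mitochondrial transhydrogenase that makes NADPH (by edgeR, 0.37, 0.26 and 0.24). Nnt was at 644, 639 and 639 in sham, 505, 530.0 and 514 after ligation and 599, 609 and 619 with cells CPM. It fell after ligation (log2 fold change -0.31, SE 0.0403, adjusted p 2.99e-06) and did not pass between cells and sham (0.152). Against sham, cells were also higher in Akr1b8 (0.77) and lower in Xdh, Slc40a1, Ggt5 and Gstp1 (-1.23, -1.10, -0.92 and -0.79).

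Markers of cell types and states moved along with several of these genes. The 8 macrophage markers summed to 569 to 624 CPM in sham, 1073 to 1111 after ligation and 443 to 464 with cells. By edgeR, 7 of them rose after ligation (20.1% of all genes did) and all 8 fell with cells (5.69% of all genes did). Ucp2, Hmox1, Gpx1, Sod3, Cybb, Ncf1, Ncf4 and Rac2 moved in the same directions, though not all by a like size. With cells the summed list was 0.416 of ligation, against 0.543 for Hmox1, 0.562 for Ucp2, 0.733 for Sod3 and 0.823 for Gpx1. The 7 erythroid markers in the files, led by Hba-a1 at 874 ± 52.3 CPM after ligation, summed to 872 to 919, 1499 to 1599 and 663 to 680.5. Hba-a2, nearly identical in sequence to Hba-a1, went the other way after ligation, from 7.54 ± 2.77 CPM (SD, n = 3) in sham to 1, 2 and 1 counts. Neutrophil markers summed to 38.4 to 45.7, 14.7 to 21.1 and 5.91 to 6.80 CPM, with Ly6g at 0 in all sham and cell libraries. Cardiomyocyte markers summed to 43691 to 44896 CPM in sham, 30091 to 32537 after ligation and 29537 to 30816 with cells, and 5 of 8 fell after ligation along with the mitochondrial redox genes, while Ryr2 rose (18% of all genes fell). Fibroblast markers summed to 2299.5 to 2355 CPM in sham and 4279.9 to 4376 after ligation, where 6 of 8 rose and Pdgfra fell (20.1% of all genes rose), and stood at 3993 to 4099.8 with cells, beside Gpx3 and Txnrd1. Adipocyte markers summed to 12.8 to 17.3 CPM in sham, 210.1 to 226 after ligation and 201 to 232 with cells, with Ucp1 at 0 in sham and ligation. Endothelial markers summed to 2013 to 2088 CPM in sham and 1333 to 1404 after ligation, where all 8 fell, and stood at 1451 to 1479 with cells. Smooth muscle and pericyte markers summed to 1785 to 1835 CPM in sham, 1325 to 1339 after ligation and 1318 to 1339 with cells. The 8 atrial markers summed to 566 to 663 CPM in sham, 991 to 1764 after ligation and 1779 to 2368 with cells. They did not move alike: 4 rose and 3 fell after ligation (20.1% and 18% of all genes did). With cells against ligation 4 rose and 1 fell (4.19% and 5.69% of all genes did). Immediate-early genes, which respond within minutes to stimuli and handling, summed to 182 to 190.2 CPM in sham, 221 to 229.9 after ligation and 464 to 473 with cells, where all 8 were higher than in ligation by edgeR (4.19% of all genes were). Glucocorticoid-responsive genes summed to 569 to 577, 785 to 801 and 764 to 779.6 CPM. Of these 8 genes, 6 rose and 1 fell after ligation (20.1% and 18% of all genes did). With cells against ligation 2 rose and 2 fell (4.19% and 5.69% of all genes did), with log2 fold changes of the list from -1.81 to 0.78. The part of cell makeup, sampling site or handling in the changes of the redox genes was not tested.

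**Figure D5:**
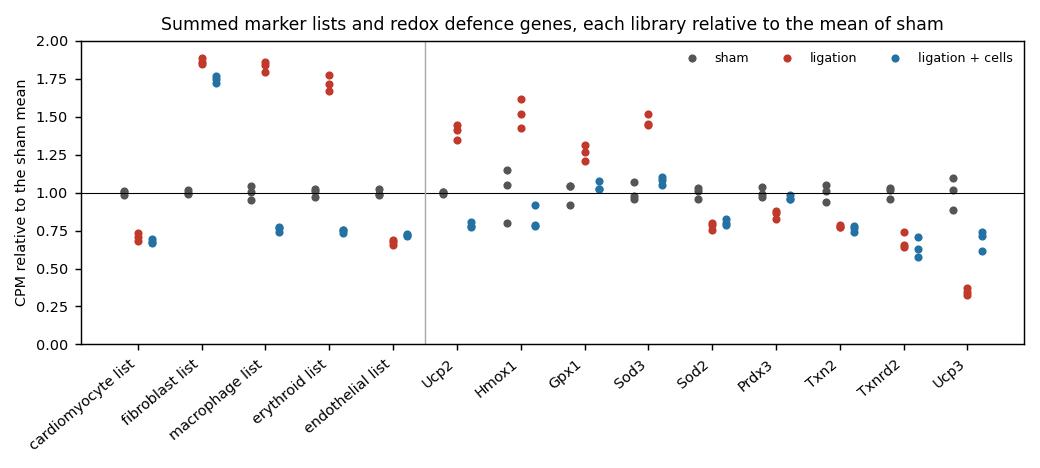
CPM relative to the mean of sham (vertical axis, linear from 0) in each library for 5 summed marker lists (left of the line) and 9 redox genes (right); grey is sham, red ligation and blue ligation with cells. The macrophage and erythroid lists, Ucp2, Hmox1, Gpx1 and Sod3 are highest after ligation and near or below sham with cells, whereas Sod2, Txn2 and Txnrd2 are below sham in both ligated groups.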

How the data were processed

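RNA of 9 libraries from the infarct border zone of mouse hearts was measured by sequencing. TRIzol was used for extraction and the NEBNext Ultra RNA kit for the libraries, per the labels' protocols. The authors deposited raw read counts by gene, not normalized, in a separate file for each library. The build is mm10, per the submitters' processing notes. The aligner, the counter, its strand setting and the annotation release are not given in the sources used here. Lines that name no gene were left out: reads in no gene were 4.14% to 4.91% and ambiguous reads 8.09% to 8.72% of reads listed.

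Titles gave the groups and replicate numbers. For cell replicates 2 and 3 the source label names FOXO members other than FOXO3, so title and treatment, which name FOXO3, were followed. Symbols, coordinates, exon lengths and shared 31-mers came from GENCODE M21, which gave a symbol to 53274 of the gene IDs. Promoters came from RefSeq (GRCm38.p6).

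Counts were fitted in R 4.3.3 with edgeR 4.0.16 (filterByExpr, TMM factors, estimateDisp, glmQLFit, glmQLFTest) in 1 model over all 9 libraries, with 6 residual degrees of freedom. Tests were two-sided, p-values were adjusted over the 13825 genes tested with the Benjamini-Hochberg method, and genes were called under 0.05. The SE of a log2 fold change was taken as its size over the root of the F statistic. CPM are TMM-scaled counts per 1000000, with SDs over 3 libraries, and CPM per kb divides them by 1000 bases of merged exons. Floors of 3 counts cover counting error only, because reads lack molecular identifiers and need not be separate molecules.

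Alternatives were RLE size factors, library totals, no filter on low counts, DESeq2 1.42.0, fits of only the 2 groups compared, a replicate block, and leaving out each library. Summing libraries whose headers share a name stem was added after seeing the data. In data simulated for the comparison of ligation with sham, with 200 of 13825 genes changed by 1 on the log2 scale, 155 (77.5%) were called with the right sign, besides 13 unchanged genes. With none changed, 0 were called. Changes smaller than 1 were not simulated, and most calls in the set are smaller. Libraries with the same number were checked for shared deviations (correlations of -0.121 to 0.133 over 9 pairs), so the numbers were not taken to pair samples.

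The genes, lists, compartments and marker sets were chosen with earlier results of these data known. Values in every library are given by a rule: genes called, with a mean of at least 1 CPM and ranges that do not overlap, the 4 largest in each direction per comparison, plus Sod2, Cat, Gpx1, Gpx4, Txnip, Hmox1, Nfe2l2, Keap1, Mt1 and Mt2. The wider list follows the same rule. Single values of some listed genes are not reported here. Of 96 marker symbols 95 were in the files. Figures were drawn with matplotlib 3.10.9, and the exact permutation tests were run with scipy 1.17.1.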

Additional observations from a re-analysis of the deposited data

How the results depend on the processing

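Library totals alone were taken in place of TMM factors. After ligation they gave 16 redox defence genes higher, 47 genes of the wider list higher, and medians of 0.18 for the set, 0.21 for cytosol and nucleus, 0.21 for the endoplasmic reticulum and other membranes and -0.17 for mitochondria. They turned the sign of Gpx7 (0.13), Prdx1 (0.029), Prdx2 (0.050), Prdx4 (0.063), Txn1 (0.17), Gsta4 (0.072) and Nqo1 (0.11). For cells against ligation they turned that of Nfe2l2 (-0.013). For cells against sham they gave 16 genes higher, 40 genes of the wider list higher and 19 lower, and medians of 0.071 for the set, 0.16 for cytosol and nucleus, 0.16 for the endoplasmic reticulum and other membranes and -0.23 for mitochondria. The sign turned for Prdx1 (0.11), Prdx3 (0.11), Prdx4 (0.0027), Txn1 (0.031) and Keap1 (0.030). Library totals and TMM scaling differ by the TMM factors. These were 0.919 to 0.928 in sham, 1.034 to 1.067 after ligation and 1.026 to 1.033 with cells. Which scaling is closer to the RNA content of the tissue was not tested.

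Keap1 after ligation was -0.0025 with RLE size factors, -0.0038 with DESeq2, -0.0099 with only the 2 groups compared and -0.00035 with libraries summed by header stem, an alternative chosen after seeing the data. That sum also gave -0.020 for Mgst1 after ligation, -0.0060 for Nfe2l2 between the ligated groups and -0.0039 for Gpx7 between cells and sham. The cause was not tested, and none of these 4 genes passed in the comparison concerned. The same sum, with fewer samples, ended the calls of Cat (adjusted p 0.240) and Txnip (0.09997) after ligation, Prdx3 (0.0630) and Mt1 (0.0694) between the ligated groups and Gss (0.0941) for cells against sham, where Glrx passed (0.0395).

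Leaving out single libraries left 7 to 9 genes higher and 13 to 14 lower after ligation, 2 to 4 higher and 4 to 5 lower for cells against ligation, and 5 to 8 higher and 13 to 15 lower for cells against sham. Every such fit called 20 of the 23, 6 of the 9 and 18 of the 21 genes. The median of the set ranged from -0.060 to 0.021 after ligation. Medians for cells against sham ranged from -0.10 to -0.038 for the set, from -0.033 to 0.022 for cytosol and nucleus and from -0.43 to -0.36 for mitochondria. Signs turned in genes that did not pass: after ligation Gpx7 (-0.13 to 0.047), Gclc (-0.040 to 0.13), Glrx (-0.0071 to 0.30), Mgst1 (-0.046 to 0.099), Txn1 (-0.073 to 0.018) and Keap1 (-0.077 to 0.047). For cells against ligation these were Txnip (-0.043 to 0.0085), Gpx7 (-0.037 to 0.12), Gsr (-0.10 to 0.019), Nfe2l2 (-0.042 to 0.072), Txnrd1 (-0.076 to 0.016), Hmox2 (-0.012 to 0.090) and Prdx4 (-0.11 to 0.075), and for cells against sham Gpx1 (-0.0047 to 0.089) and Gpx7 (-0.069 to 0.11).

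With the replicate block the counts were 8 higher and 14 lower after ligation, 2 and 5 for cells against ligation, and 6 and 14 for cells against sham. It ended the calls of Cat (adjusted p 0.0666), Prdx3 and Mt1 (0.0512 and 0.0650, cells against ligation) and Gss (0.0551, cells against sham), and no other call of the set. The numbers are not known to pair the libraries. RLE size factors, DESeq2, no filter and 2-group fits kept every count within 1.5 times. No filter also ended the calls of Mt1 (0.0785, cells against ligation) and Gss (0.0681, cells against sham), and Glrx passed (0.0169, cells against sham). Depth limits the low genes: at 3 counts a library detects 0.375 to 0.639 CPM, so nothing was read from Mt2.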
